A study of Mus musculus with 12 samples.

Results

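Chil3, Retnla and the genes around interleukin-4 (IL-4) were followed in mouse tumours given vehicle, cisplatin, brivanib or both drugs. The 8 genes were Il4ra, Il13ra1, Stat6, Chil3, Retnla, Mgl2, Arg1 and Nos2, out of 53801 genes in the deposited table. They were chosen by name, with results of these same tumours already known. The known results included the rise of Chil3 under the combination and that of Il4ra under brivanib. Both are given as a description with no test, and so are the differences of these genes between the combination and brivanib, which rest on the same high libraries.

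The tumours were grown from Lewis lung carcinoma (LLC), a mouse lung cancer line that takes in hosts of the C57BL/6 strain. Female C57BL/6 mice aged 6 to 8 weeks received 3 M (M, 1e6) LLC cells in Matrigel in each flank. The labels name 4 groups of 6 animals with 10 to 12 tumours each, and 3 tumours per group were sequenced. All groups carried the same cells in hosts of the same strain, and they differed in the injection into the peritoneum, given 2 times per week for 4 weeks once tumour volume had reached at least 100 mm3. The injections held vehicle, cisplatin (platinum chemotherapy that damages DNA), brivanib (which blocks the kinases of the VEGF and FGF receptors) or both drugs, called the combination. The labels state no dose. The labels do not tie a tumour to an animal, and each animal could give 2 tumours, so the p-values reflect the spread among these tumours alone.

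IL-4 and IL-13 are cytokines of type 2 immunity. Both bind receptors that hold the chain encoded by Il4ra; IL-13 also uses the chain encoded by Il13ra1. The receptors activate the transcription factor STAT6, which in macrophages switches on a set of genes known as alternative activation. Chil3 (the secreted chitinase-like protein Ym1), Retnla (the secreted protein RELMα), Mgl2 (the surface lectin CD301b) and Arg1 (arginase 1, which breaks down arginine) are classical members of that set in mouse macrophages. Nos2 encodes inducible nitric oxide synthase, which uses the same arginine and is the usual marker of classical activation by interferon-gamma and microbial products.

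The promoters of Chil3 and Retnla are shown with those of their nearest relatives, because the members of each pair are similar in sequence and differed in level in these tumours. Promoter sequence came from RefSeq on GRCm38.p6 and held entries for 6 of the 8 genes, Chil3, Retnla, Mgl2, Il4ra, Il13ra1 and Stat6. The 250 bases before each start were searched for TTCNNNNGAA, the spacing that STAT6 prefers, and for TTCNNNGAA, the spacing shared by other STAT factors. Each motif reads the same on both strands, and the 2 were counted separately. TTCNNNNGAA occurred in 5.85% of the 32851 windows of this length in the table, and TTCNNNGAA in 7.02%. Capitals mark the match in the stretches below, which are written 5′ to 3′ on the strand of the gene.
Chil3, chr3:106167703-106167761, minus strand: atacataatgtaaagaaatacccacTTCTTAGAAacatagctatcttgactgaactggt
Chil4, chr3:106219646-106219704, minus strand: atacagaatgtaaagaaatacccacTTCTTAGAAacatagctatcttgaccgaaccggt
Retnla, chr16:48842439-48842498, plus strand: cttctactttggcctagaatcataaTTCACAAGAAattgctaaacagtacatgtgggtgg
Retnlg, chr16:48872511-48872570, plus strand: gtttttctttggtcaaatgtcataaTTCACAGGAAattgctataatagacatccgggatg
The match lies 172 to 164 bases before the RefSeq start in Chil3 and 200 to 192 bases before it in Chil4. It lies 145 to 136 bases before the start in Retnla and 72 to 63 bases before it in Retnlg. The Chil3 and Chil4 stretches were identical at 56 of 59 bases, and the Retnla and Retnlg stretches at 42 of 60. Neither set of letters was found in the windows of Il4ra, Il13ra1, Stat6 or Mgl2.

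The values are FPKM (fragments per kilobase, scaled to library size), summed over the transcripts of a gene, which allows levels of different genes to be set side by side. Library depth was 17.161 M to 30.943 M recovered fragments. Brivanib 5, the deepest library, held 38.333% ribosomal-like fragments against 0.316 to 0.692% in the others, and 19.082 M fragments without them. Differences were tested with limma on log2(FPKM + 1) over 14246 genes with a mean of at least 1 FPKM, and a gene passed at a Benjamini-Hochberg adjusted p under 0.05. Fold changes are log2 differences on that scale ± standard error (SE), which understates the change of low genes. All 8 genes entered the test, Retnla only through the brivanib libraries, since its mean over the other 9 libraries was 0.227 FPKM, so its brivanib differences are also given with no test. The background was 27 genes past the threshold (0.190%) in cisplatin against vehicle, 258 (1.81%) in brivanib against vehicle, 333 (2.34%) in the combination against vehicle and 551 (3.87%) in the combination against brivanib. It was 0 genes (0%) for the combination against cisplatin, where 960 had an unadjusted p under 0.05 and voom with limma on the recovered fragments also called 0. The interaction, which sets the effect of brivanib beside cisplatin against its effect alone, had 20 genes (0.140%).

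Of the 8 genes, 0 passed in cisplatin against vehicle, in the combination against cisplatin and in the interaction. There 1, 1 and 3 of the 8 had an unadjusted p under 0.05, beside 2036, 960 and 1430 of all 14246 genes tested. Calls of the 8 by voom were 0 as well. In the other comparisons Chil3, Il4ra and Retnla are left out of the account. Of the remaining members, Il13ra1 passed in brivanib against vehicle (higher), and Il13ra1 and Mgl2 passed in the combination against brivanib (both lower). None of them passed limma in the combination against vehicle, where Mgl2 alone had an unadjusted p under 0.05 (0.0359) and voom called none of them either. Because the genes were chosen with results known, these calls describe the genes and nothing is read from their excess over the background. In brivanib against vehicle the median log2 fold change of the 8 was 1.22, beside -0.01 for all tested genes, and in the combination against brivanib it was -1.08, beside 0.04. These medians include Chil3, Il4ra and Retnla, so they too are a description, and nothing is read from their distance to all genes. These are whole tumours, in which more cells of a type and more RNA per cell cannot be told apart.

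**Figure D1:**
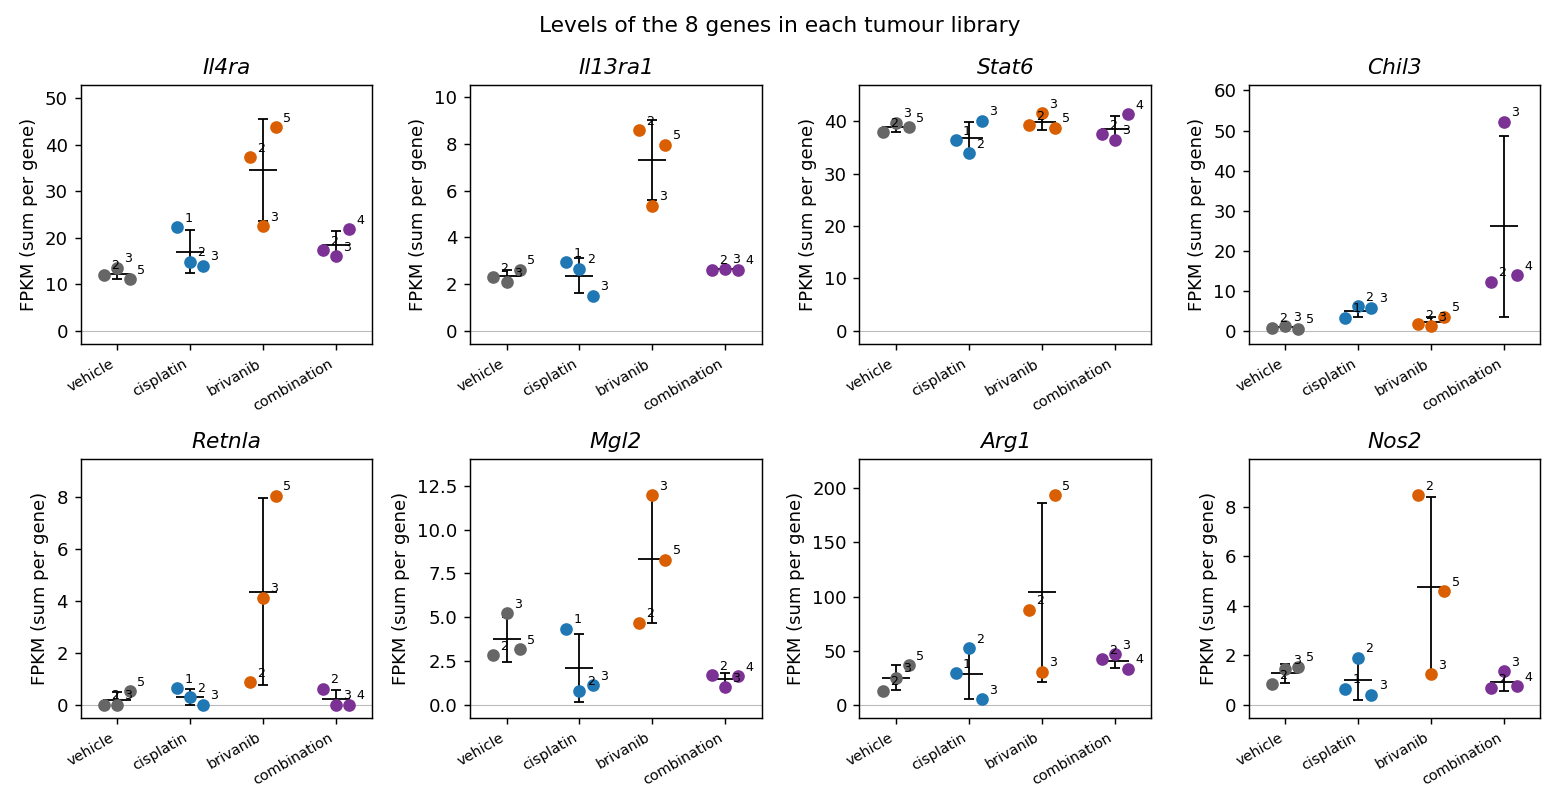
FPKM (linear axis from 0) of each of the 8 genes in every tumour library, with the library number beside each point; the horizontal mark is the group mean and the bar its SD (n = 3). Chil3 is highest in the 3 combination libraries (12.3 to 52.2), Il4ra and Il13ra1 are highest in the 3 brivanib libraries, Stat6 is level across the groups, and Retnla, Arg1 and Nos2 spread widely within brivanib.

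Among the ligands, transcripts of Il4 and Il13 were at or near the limit of detection in every group. Il4 had 8 to 22 fragments per library (0.666 to 2.12 FPKM), with no group apart from the others. Nearly all of it was assigned to ENSMUST00000127858, a processed transcript that is not annotated as coding; the full-length coding transcript ENSMUST00000000889 was at 0 in all 12 libraries. Il13 had 8 fragments in brivanib 3 (0.297 FPKM) and 0 in the other 11, which allows up to 0.106 to 0.138 FPKM at 3 fragments, counting error only. Il33, an alarmin released by damaged tissue that drives production of IL-13, was far better measured. Its level was 6.41, 5.69 and 8.99 FPKM in vehicle 2, 3 and 5, 26.7, 5.50 and 21.6 in brivanib 2, 3 and 5, and 3.38, 3.99 and 4.07 in combination 2, 3 and 4. Cisplatin 1, 2 and 3 had 5.51, 3.88 and 3.25 FPKM, which overlapped the combination. Brivanib 3 lay at the vehicle level while brivanib 2 and 5 lay above all others. Il33 fell in the combination against brivanib (-1.73 ± 0.42, limma adjusted p = 0.044), a call kept in 8 of 23 alternative analyses.

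Il4ra (chromosome 7, 125552120 to 125579474, GRCm38), the chain shared by both receptor types, was highest in the brivanib tumours. It measured 12.1, 13.6 and 11.1 FPKM in vehicle 2, 3 and 5 and 22.3, 14.8 and 14.0 in cisplatin 1, 2 and 3. In brivanib 2, 3 and 5 it measured 37.4, 22.5 and 43.8, and in combination 2, 3 and 4 it measured 17.4, 16.1 and 21.8. Every brivanib library lay above every library of the other groups, although brivanib 3 (22.5) and cisplatin 1 (22.3) nearly met. The group means were 12.3 ± 1.22, 17.0 ± 4.55, 34.6 ± 10.9 and 18.4 ± 3.02 (SD, n = 3), in the order vehicle, cisplatin, brivanib, combination. Brivanib tumours thus had 2.82 times the vehicle mean, a log2 fold change of 1.38 ± 0.23. It was 1.49 with the muscle score and 1.54 with the adipocyte score as covariate. The combination was 0.54 ± 0.23 above vehicle (limma adjusted p = 0.232) and differed from brivanib by -0.83 ± 0.23, or by -1.10 without brivanib 3.

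Most of the Il4ra signal was assigned to a transcript annotated as a target of nonsense-mediated decay, ENSMUST00000206846 (3696 bases), and not to the full-length coding transcript ENSMUST00000033004 (5256 bases). The decay-annotated transcript averaged 8.39 ± 2.66 FPKM in vehicle, 12.7 ± 3.04 in cisplatin, 25.7 ± 6.55 in brivanib and 11.9 ± 3.53 in the combination (SD, n = 3). The coding transcript averaged 3.24 ± 1.41, 3.65 ± 1.66, 7.13 ± 2.95 and 6.13 ± 0.979 in the same order. Both were highest on average in brivanib, and on the coding transcript alone the brivanib libraries (8.32, 3.76 and 9.30) overlapped the combination libraries (5.47, 7.25 and 5.65). They overlapped vehicle and cisplatin too, since brivanib 3 lay below vehicle 5 (4.85), cisplatin 1 (5.12) and cisplatin 2 (3.97). Brivanib 2 and 5 lay above all libraries of the other groups. RSEM divides fragments among overlapping transcripts, so this split is an estimate.

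**Figure D2:**
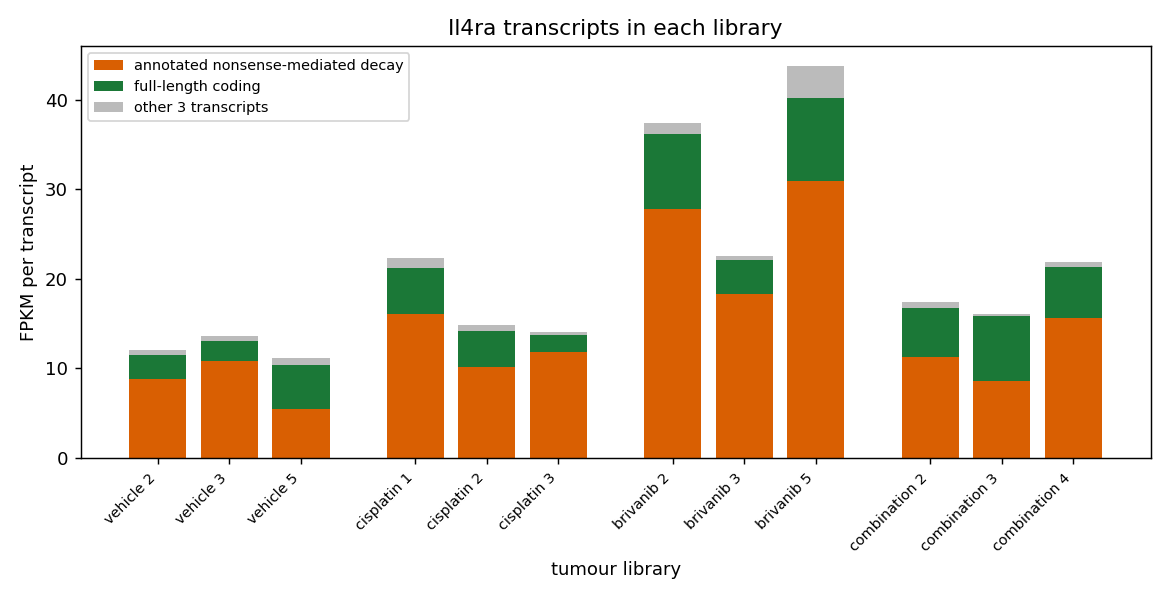
Stacked bars (linear axis from 0) of the FPKM assigned to the transcripts of Il4ra in each of the 12 libraries: the decay-annotated transcript, the full-length coding transcript and the other 3 together. The decay-annotated part is the larger one in every library and reaches 30.9 in brivanib 5.

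Il13ra1 (chromosome X, 36112110 to 36171259), the second chain of the IL-13 receptor, had a single transcript and a clear pattern. Its level was 2.29, 2.08 and 2.62 FPKM in vehicle 2, 3 and 5, and 2.94, 2.67 and 1.496 in cisplatin 1, 2 and 3. It was 8.60, 5.36 and 7.97 in brivanib 2, 3 and 5, and 2.62, 2.66 and 2.62 in combination 2, 3 and 4. The brivanib libraries stood above all 9 others with no overlap, and the other 3 groups overlapped one another. Il13ra1 was 3.14 times the vehicle mean in brivanib (1.30 ± 0.20, limma adjusted p = 0.00652). It was lower in the combination than in brivanib by a log2 difference of -1.17 ± 0.20 (limma adjusted p = 0.0126). The first call was lost only when the adipocyte score was a covariate (limma adjusted p = 0.0539), out of 22 alternatives. The second was kept in 20 of 22; it was lost without combination 3 (limma adjusted p = 0.0603) and with the replicate number as a block (limma adjusted p = 0.0549). The interaction was -1.16 ± 0.28 (limma adjusted p = 0.151).

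Stat6 (chromosome 10, 127642986 to 127660957), the transcription factor below both receptors, ranged only from 33.9 to 41.5 FPKM over the 12 libraries. The group means were 38.9 ± 0.927, 36.8 ± 3.11, 39.8 ± 1.47 and 38.4 ± 2.57 (SD, n = 3) in vehicle, cisplatin, brivanib and the combination, which overlap. Its fold changes lay between -0.08 and 0.06 in the 5 pairwise comparisons, each with an SE of 0.0888, and none passed. That was the smallest SE among the 8 genes. RNA level does not report the phosphorylation that activates STAT6.

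Chil3 (chromosome 3, 106147554 to 106167564) was lowest on average in vehicle and highest in the combination. Vehicle 2, 3 and 5 had 0.829, 1.21 and 0.483 FPKM (11 to 38 fragments). Cisplatin 1, 2 and 3 had 3.28, 6.10 and 5.74, and brivanib 2, 3 and 5 had 1.72, 1.11 and 3.501. Combination 2, 3 and 4 had 12.3, 52.2 and 13.8 (380 to 1834 fragments). The combination libraries were above all others and the cisplatin libraries above all vehicle libraries, while brivanib overlapped both vehicle and cisplatin. The mean in the combination was 31.1 times that in vehicle, or 3.59 ± 0.46 in log2. Combination 3 alone set much of that mean, yet the 2 other combination libraries each exceeded every library outside the group.

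Against brivanib the combination was higher in Chil3 by 2.89 ± 0.46. Against cisplatin the difference was 1.89 ± 0.46, which did not pass, in a comparison with 0 genes past the threshold. Cisplatin against vehicle gave 1.70 ± 0.46 (limma adjusted p = 0.132, and 0.044 when only the groups compared entered the fit). The interaction was 1.19 ± 0.65 and did not pass. The interaction and the difference from cisplatin rest on the combination libraries already known to be high. No effect of the drugs together beyond the sum of their separate effects on the log scale is read from them. In the 3 combination libraries 96.9 to 99.1% of the Chil3 signal was on the full-length coding transcript ENSMUST00000063062, against 43.3 to 89.7% in vehicle, where a few fragments on a retained-intron transcript made up the rest.

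Chil4, the relative of Chil3 whose promoter stretch is printed above, was close to silent. It had 2 fragments in cisplatin 1, 1 in combination 3 and 0 in the other 10 libraries. The spliced transcripts of the 2 genes were 94.4% identical over 1538 aligned bases, so fragments of one could in part be assigned to the other. Chil1, a further chitinase-like gene, had 0 to 10 fragments per library.

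Retnla (chromosome 16, 48842552 to 48844461) was seen mainly in the brivanib tumours. It measured 0.851, 4.11 and 8.04 FPKM in brivanib 2, 3 and 5, from 11, 55 and 101 fragments. Outside that group it was listed at 0 in 5 of 9 libraries, where 3 fragments would correspond to 0.213 to 0.279 FPKM, and the highest value was 0.624 in cisplatin 1. All brivanib libraries lay above all others, but brivanib 2 only narrowly. The log2 fold change was 1.94 ± 0.47 for brivanib against vehicle, and -1.91 ± 0.47 for the combination against brivanib. Without brivanib 2 the difference from vehicle was 2.56. Retnla fell below the level filter without brivanib 3 alone, without brivanib 5 alone, and without both.

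Skeletal muscle marker genes moved with Retnla inside the brivanib group. The summed level of the 10 markers was 1.25 FPKM in brivanib 2, 290.8 in brivanib 3 and 251.9 in brivanib 5, against 0.854 to 46.95 in the other 9 libraries. With the muscle score as a covariate the difference between the combination and brivanib in Retnla became -1.05. Retnlg, the neighbour of Retnla on chromosome 16, had another pattern: 0 to 1.80 FPKM in vehicle, 8.37 in brivanib 5 and 28.9 in combination 3, with 2.04 and 2.56 in combination 2 and 4. It passed in no comparison (combination against vehicle 1.98 ± 0.74, limma adjusted p = 0.173). Retn, which encodes resistin, an adipocyte hormone in mice, was listed at 0 in the 3 vehicle libraries and had 36 to 84 fragments in the combination (4.31, 3.05 and 2.17 FPKM). The combination was 2.03 ± 0.45 above vehicle, given with no test because Retn passed the level filter only through the combination (mean of the other 9 libraries 0.412 FPKM). Retn was not particular to the combination. It was 2.34 FPKM in brivanib 3, above combination 4, 1.285 in cisplatin 1 and at most 0.0835 in the other cisplatin and brivanib libraries. The summed level of the 10 adipocyte markers was 2.51 to 3.05 FPKM in vehicle and 35.3 to 66.9 in the combination. That sum was 42.8, 2.25 and 5.18 in cisplatin 1, 2 and 3, and 8.85, 195.3 and 34.3 in brivanib 2, 3 and 5.

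Mgl2 (chromosome 11, 70130329 to 70137550) fell in the combination against brivanib, where Chil3 was higher. Vehicle 2, 3 and 5 had 2.83, 5.20 and 3.15 FPKM, and cisplatin 1, 2 and 3 had 4.34, 0.802 and 1.11. Brivanib 2, 3 and 5 had 4.69, 12.0 and 8.28, and combination 2, 3 and 4 had 1.69, 1.01 and 1.61. The combination libraries lay below all vehicle and brivanib libraries and within the range of cisplatin; brivanib 2 fell inside the vehicle range. The combination was lower than brivanib by a log2 difference of -1.87 ± 0.40 (limma adjusted p = 0.0261). The call was kept in 15 of 22 alternatives and lost without brivanib 3, brivanib 5, combination 2 or combination 3 in turn (limma adjusted p = 0.0591, 0.0856, 0.0653 and 0.105). Without brivanib 3 and 5 together, the 2 libraries high in muscle markers, the difference was -1.24 (limma adjusted p = 0.199). Brivanib against vehicle gave 0.93 ± 0.40 (limma adjusted p = 0.375) and the combination against vehicle -0.94 ± 0.40 (limma adjusted p = 0.229).

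Clec10a, the neighbouring gene for the related lectin CD301a, had another pattern. It measured 1.11, 1.36 and 0.850 FPKM in vehicle 2, 3 and 5, 7.04, 7.89 and 8.00 in brivanib 2, 3 and 5, and 4.07, 6.06 and 4.86 in combination 2, 3 and 4. Cisplatin 1 had 7.03 while cisplatin 2 and 3 had 1.67 and 1.13. Brivanib was 2.04 ± 0.38 above vehicle in Clec10a, a difference already known when the lists were made and given with no test. The combination was 1.502 above vehicle (SE 0.38, limma adjusted p = 0.0599) and differed from brivanib by -0.54 ± 0.38 (limma adjusted p = 0.436). The transcripts of Mgl2 and Clec10a were 85.0% identical over 1326 aligned bases.

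Arg1 (chromosome 10, 24915221 to 24927484) had the highest mean of the 4 target genes in every group and the largest SE of the 8 genes (0.76). It measured 13.01, 24.9 and 36.6 FPKM in vehicle 2, 3 and 5, and 29.1, 52.3 and 4.74 in cisplatin 1, 2 and 3. It measured 87.9, 30.5 and 193.7 in brivanib 2, 3 and 5, and 42.2, 46.6 and 33.0 in combination 2, 3 and 4. Brivanib 2 and 5 stood above all other libraries, while brivanib 3 was inside the vehicle range. The means were 24.8 ± 11.8, 28.7 ± 23.8, 104 ± 82.8 and 40.6 ± 6.94 (SD, n = 3) in vehicle, cisplatin, brivanib and the combination. The largest difference, 1.77 ± 0.76 for brivanib against vehicle, did not pass (limma adjusted p = 0.385), nor did any other comparison of Arg1.

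Nos2 (chromosome 11, 78920787 to 78960254), the competitor of arginase for arginine, was 0.817, 1.43 and 1.54 FPKM in vehicle 2, 3 and 5, and 0.635, 1.89 and 0.399 in cisplatin 1, 2 and 3. It was 8.47, 1.24 and 4.596 in brivanib 2, 3 and 5, and 0.668, 1.35 and 0.742 in combination 2, 3 and 4. As with Arg1, brivanib 2 and 5 were above all other libraries and brivanib 3 was at the vehicle level. Brivanib against vehicle gave 1.14 ± 0.44 (limma adjusted p = 0.321) and, without brivanib 3, 1.70 (limma adjusted p = 0.035). The combination against brivanib gave -1.37 ± 0.44 (limma adjusted p = 0.102) and, without brivanib 3, -1.94 (limma adjusted p = 0.019). Fragments in vehicle were assigned mainly to ENSMUST00000214397 (60.8 to 100% of the gene) and in the combination wholly to ENSMUST00000018610, from 56 to 130 fragments per library.

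**Figure D3:**
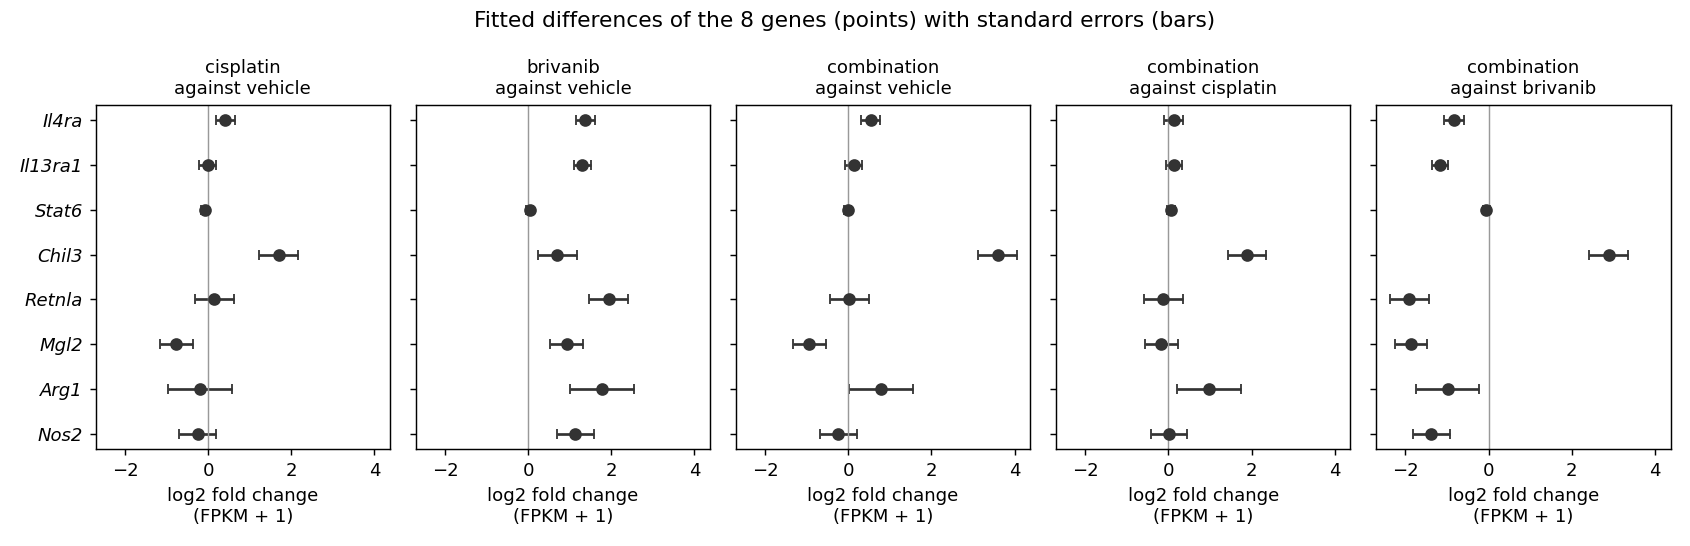
Log2 fold changes on the FPKM + 1 scale (points) with their standard errors (bars) for the 8 genes in the 5 pairwise comparisons, all on 1 linear axis. In brivanib against vehicle every point lies at or to the right of 0, with Stat6 at 0.03; in the combination against brivanib every point but Chil3 lies to the left of 0.

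The sum of the neutrophil markers moved with several of these values. The summed level of the 10 markers was highest in brivanib 5 (140.2 FPKM), combination 3 (100.2) and brivanib 2 (74.75), and 7.83 to 56.5 in the other 9 libraries. S100a8 and S100a9 made up most of it (40.6 and 78.2 FPKM in brivanib 5). Cxcr2 and Csf3r were highest in the same 3 libraries. Ly6g went another way, with 3.75 FPKM in brivanib 3, 0.246 in brivanib 2 and 0.185 in combination 3. Ngp and Camp were at or near 0 throughout. Brivanib 2 and 5 were the 2 libraries highest in Arg1 and Nos2, and combination 3 was the library highest in Chil3 and Retnlg. Combination 2 and 4 had 12.3 and 13.8 FPKM of Chil3 and a neutrophil sum of 16.8 and 18.1. The part of neutrophils in Arg1, Nos2 and Chil3 was not tested. The 12 macrophage markers were all detected, with a sum of 234.7 to 408.8 FPKM in vehicle, 241.9 to 525.5 in cisplatin, 617.8 to 823.6 in brivanib and 198.4 to 608.9 in the combination. In brivanib against vehicle the median log2 fold change of the 12 was 1.22. Of them 2 were called, beside 1.81% of all genes: the scavenger receptor Cd163 and the lysosomal protein Cd68. Both were already known, so nothing is read from the count. Cd163 averaged 0.552 FPKM in vehicle, 3.37 in cisplatin, 10.3 in brivanib and 5.23 in the combination. Mertk and Cd14 of the same list did not follow, with means of 10.5 and 16.5 FPKM in vehicle and 10.4 and 17.75 in brivanib. Lyz2 made up the largest part of the sum (308.8 to 448.8 FPKM in brivanib). The lowest macrophage sum (198.4) was that of combination 3, the library highest in Chil3. The part of macrophage content in the 8 genes was not tested.

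Mast cell and basophil markers, which belong to cells able to make IL-4 and IL-13, were summed to 21.6 to 50.7 FPKM in brivanib and 6.84 to 13.7 in the other groups. The mast cell proteases Cma1, Cpa3, Mcpt4 and Tpsb2 measured 3.78 to 10.4 FPKM in brivanib and 0 to 2.49 in the other groups. They passed the level filter only through brivanib (means of the other 9 libraries 0.812 to 0.976 FPKM), so no test is given. Kit and Mcpt8 of the same list did not follow. Kit averaged 4.81 FPKM in vehicle and 4.37 in brivanib. Mcpt8 was 1.89 to 2.04 FPKM in vehicle and 4.72, 1.82 and 1.46 in brivanib 2, 3 and 5. Fcer1a was 0.810 to 1.90 FPKM in brivanib and at most 0.612 elsewhere, and Ms4a2 was at most 0.512. Fibroblast markers were summed to 1596 to 2095 FPKM in brivanib and 322.1 to 1245 elsewhere. Of that list the collagen genes Col1a1, Col1a2 and Col3a1 and Pi16 had higher means in brivanib than in vehicle. Dcn, Lum, Pdgfra and Dpt averaged 136.9, 185.3, 24.2 and 54.7 FPKM in brivanib, beside 135.1, 197.9, 23.5 and 53.1 in vehicle. By the sums of both lists the brivanib libraries were above all others, as for Il4ra and Il13ra1. The part of these cells in the receptor values was not tested. Eosinophil markers were near 0 (sum at most 1.15 FPKM, with Epx and Ear1 at 0 in all libraries). Of the keratin genes that mark carcinoma cells Krt18 was at 0 in all libraries, and the sum of the 4 was at most 2.68 FPKM. In the list of alveolar macrophage and lung epithelium genes, Sftpc and Scgb1a1 were at 0 throughout and Sftpb had at most 3 fragments. Marco, a scavenger receptor of macrophages, was 9.71, 2.95 and 6.68 FPKM in brivanib 2, 3 and 5 and 0 to 2.33 in the other groups. Car4, a membrane carbonic anhydrase, was 11.7 FPKM in combination 3, the library highest in Chil3, 1.08 and 0.875 in combination 2 and 4 and at most 0.950 elsewhere. Marco and Car4 passed the level filter only through brivanib and the combination, so no test is given, and their part in the values of the 8 genes was not tested.

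**Figure D4:**
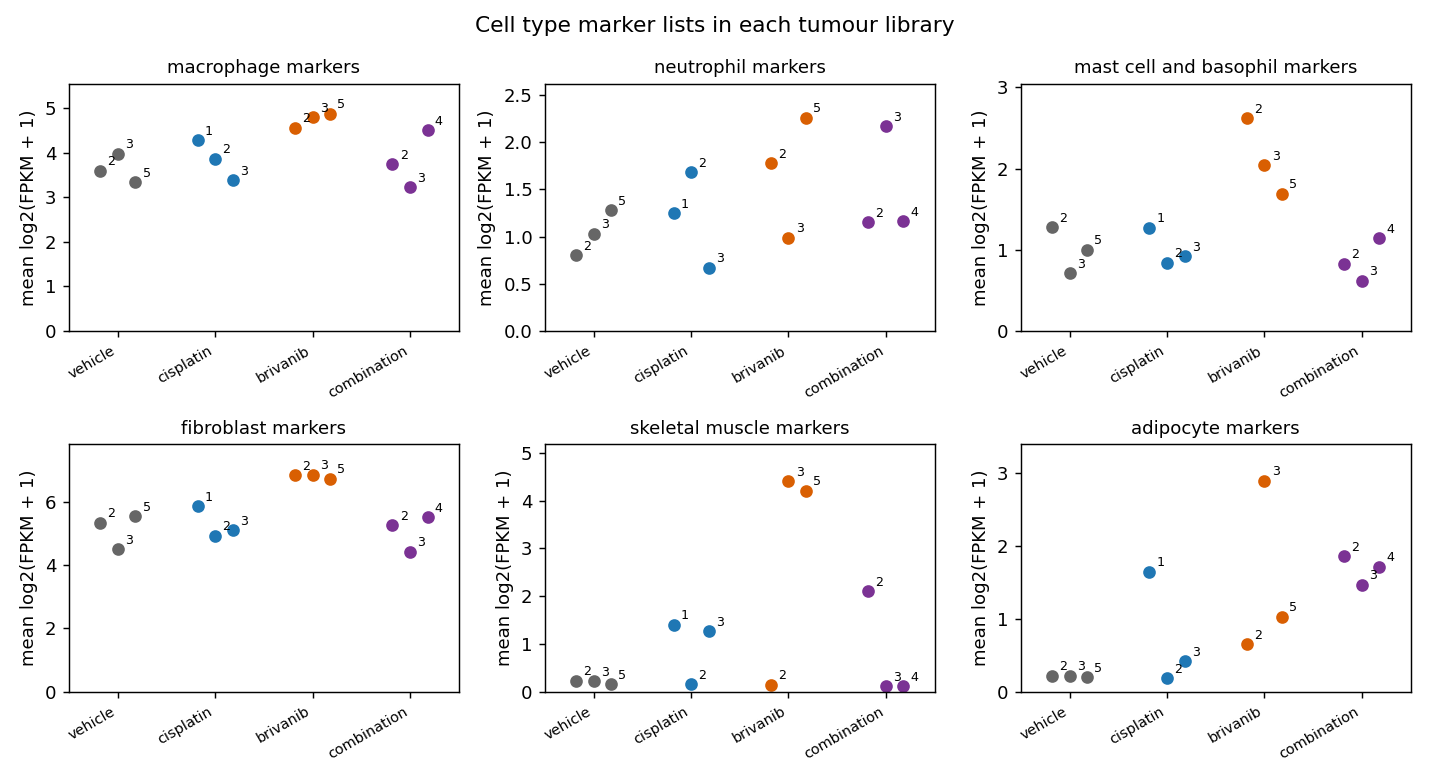
Mean log2(FPKM + 1) of 6 cell type marker lists in every library, on linear axes from 0, with the library number beside each point. Macrophage, mast cell and fibroblast markers are highest in the 3 brivanib libraries, muscle markers stand out in brivanib 3 and 5 (4.41 and 4.21), and neutrophil markers in brivanib 5 and combination 3.

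Around the 8 genes, 7 lists of 103 further pathway genes were examined, of which 70 passed the level filter. None of the 70 passed in cisplatin against vehicle, the combination against cisplatin or the interaction by limma or voom. There 8, 5 and 15 of them had an unadjusted p under 0.05, beside 2036, 960 and 1430 of all 14246 genes tested. In brivanib against vehicle limma called 4 higher and 0 lower, with a list median of 0.26. That was 5.71% of those tested, beside 1.81% of all genes, both in either direction. Of the 4, Clec10a was already known, and Ass1, which rebuilds arginine from citrulline, passed the level filter only through brivanib (mean of the other 9 libraries 0.849 FPKM), so nothing is read from the count. The others were F13a1, the coagulation factor XIII subunit made by macrophages (2.16 ± 0.41, limma adjusted p = 0.0197), and Klf4, a transcription factor that cooperates with STAT6 (1.26 ± 0.28, limma adjusted p = 0.0451). F13a1 measured 12.9, 24.96 and 14.2 FPKM in vehicle 2, 3 and 5 and 97.5, 58.6 and 82.4 in brivanib 2, 3 and 5, without overlap. Klf4 kept its call in 5 of 22 alternatives and F13a1 in 16 of 23. The count was 0 without vehicle 2, vehicle 5 or brivanib 5, 1 without vehicle 3, 2 without brivanib 2, cisplatin 2 or combination 2, and 2 without brivanib 3 and 5 together.

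In the combination against vehicle limma called 2 of the 70 higher and 0 lower (2.86%, beside 2.34% of all genes, both in either direction). One was Retn, which entered only through the combination, and the other Cd36, a fatty acid and lipoprotein receptor of macrophages and adipocytes. Cd36 measured 5.61, 5.21 and 5.01 FPKM in vehicle 2, 3 and 5 and 20.9, 47.9 and 11.8 in combination 2, 3 and 4 (1.93 ± 0.35, limma adjusted p = 0.0218), a call kept in 16 of 23 alternatives. It measured 9.52, 12.3 and 8.86 in cisplatin 1, 2 and 3 and 14.65, 17.0 and 13.85 in brivanib 2, 3 and 5. All cisplatin and brivanib libraries thus lay above all vehicle libraries, and every brivanib library lay above combination 4. The count was 0 without any 1 of the vehicle libraries or without combination 2, and 1 without brivanib 3, combination 3 or combination 4. It was also 0 once the adipocyte score was a covariate.

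In the combination against brivanib 4 of the 70 fell and 0 rose (5.71%, beside 3.87% of all genes, both in either direction). They were Il33, F13a1 (-2.02 ± 0.41, limma adjusted p = 0.0236), the fibronectin gene Fn1 (-0.90 ± 0.17, limma adjusted p = 0.0187) and Egr2, a transcription factor induced by IL-4 (-0.72 ± 0.17, limma adjusted p = 0.0373). The count was 0 without brivanib 5, combination 2 or combination 3, 2 without vehicle 2, vehicle 3 or cisplatin 3, and 7 without brivanib 3 or combination 4. By list, the alternative activation genes had 3 of 22 tested called higher in brivanib against vehicle (median 0.71, Clec10a included) and 3 lower in the combination against brivanib (median -0.58). Of all genes 1.81% and 3.87% were called in these comparisons, with medians of -0.01 and 0.04. The lists were chosen with results of these data known, so nothing is read from these counts or from their contrast with the other lists. The 20 tested classical activation genes, the 5 receptors and the 8 signalling genes had 0 past the threshold of limma in all 6 comparisons. At most 5, 4 and 3 of them had an unadjusted p under 0.05 in a comparison. Of all 14246 genes tested, 960 to 3096 had such a p, depending on the comparison. By voom 1 signalling gene was called in the combination against brivanib. The signalling genes, which include the receptor-bound Janus kinases, had medians between -0.09 and -0.00 over the comparisons, close to those of all genes.

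The genes whose levels ran most like each member over the 12 libraries are given by Pearson's r of log2(FPKM + 1), as a description. The 12 values share treatment groups, libraries and depth, so a high r is found for any gene that is high in 1 group. For Chil3 they were Stom (0.948), Arl4d (0.947), Cramp1l (0.936) and Il17ra (0.931). For Retnla they were Kpna1 (0.956) and 3 genes of tendon, cartilage or muscle tissue, Cilp (0.945), Thbs4 (0.943) and Pvalb (0.939). For Il4ra they were Wfdc17 (0.961), Emilin2 (0.960), Cyp1b1 (0.960) and Saa3 (0.958), and for Il13ra1 Pi16 (0.970), Lgi2 (0.962), Cd209f (0.952) and Emilin2 (0.952). Arg1 ran with Csf3r (0.942), the receptor of the neutrophil growth factor G-CSF, and with Lilrb4 (0.917), Cd80 (0.904) and Lilr4b (0.903). Nos2 ran with Rnd1 (0.962), Il6 (0.917), Itga2 (0.912) and Anxa3 (0.912). For Mgl2 the values were lower, with Vkorc1 (0.909), Mgp (0.899), Col5a3 (0.897) and Slc7a7 (0.892), and for Stat6 none exceeded 0.818 (Amacr). Between members, r was 0.88 for Il4ra with Il13ra1, 0.85 for Nos2 with Il13ra1, -0.64 for Chil3 with Mgl2 and -0.27 for Chil3 with Retnla.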

How the data were processed

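Total RNA of 12 tumours was sequenced on a BGISEQ-500, aligned with Bowtie2 and summarised by the authors as FPKM per transcript with RSEM, per the labels' design text. Per the submitters' processing notes the tools were Bowtie2 2.2.5, RSEM 1.2.12, Bowtie and HISAT and the build mm9, where the design text has mm10; 98.46% of 135047 transcripts found in GENCODE M21 had identical GRCm38 coordinates in the deposited table. Strand setting is not given in the sources used here. A value column that matched no sample (1) and broken lines (3) were left out. The deposited FPKM values were summed per gene. FPKM times length ran in whole steps (100% of values up to 100 fragments, within 0.01), which gave fragments per gene and a depth of 17.161 to 30.943 M (M, 1e6). No molecular identifiers are named, so duplicate fragments cannot be told apart. The error of a fragment number may thus exceed counting error, the only error included in the limits given for undetected transcripts.

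limma 3.58.1 in R 4.3.3 was fitted to log2(FPKM + 1) with 4 group means over 12 libraries (8 residual degrees of freedom, variance trend, two-sided), with Benjamini-Hochberg adjustment over 14246 genes with a mean FPKM of at least 1. It was tested on simulated data. Chil3 and Retnla promoters and transcripts were handled with Python 3.11.15 and Biopython 1.88. Alternatives were other scalings, pseudocount 0.1, no filter or a mean of at least 5, voom on fragments, fewer groups, muscle or adipocyte score as covariate, a replicate block, each library left out, and, chosen after seeing the data, brivanib 3 and 5 left out together. The 8 genes, the 7 pathway lists and the 11 marker lists were chosen with earlier results of these data known. Named pathway genes are those past the threshold, Il4, Il13, Chil4, Retnlg and Chil1; likeness names the top 4 per member. Other named genes were chosen after their values were seen.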

Additional observations from a re-analysis of the deposited data

How the results depend on the processing

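The number of pathway genes past the threshold moved with several settings. For brivanib against vehicle the 4 became 1 at a mean FPKM of at least 5, 8 with only the groups compared, 1 with the muscle score and 0 with the adipocyte score in the model, and 2 without brivanib 3 and 5. For the combination against vehicle the 2 became 1 with pseudocount 0.1, 0 with no filter on low values, 1 at a mean FPKM of at least 5, 0 with the adipocyte score and 1 with the replicate block. For the combination against brivanib the 4 became 2 with only the groups compared and 8 with the muscle score. Leaving out 1 library gave 0 to 6, 0 to 3 and 0 to 7 in these comparisons and 0 to 0 in the others. The cause was not tested. No fold change of a gene past the threshold changed sign in any alternative. Over all genes the calls ranged over the alternatives from 0 to 100 (27 as reported) for cisplatin against vehicle, 27 to 377 (258) for brivanib against vehicle, 21 to 523 (333) for the combination against vehicle, 61 to 712 (551) for the combination against brivanib, 0 to 3 (0) for the combination against cisplatin and 0 to 29 (20) for the interaction. Same-numbered libraries of different groups deviated together little (r over genes -0.16 to 0.21 in 13 pairs, 2 over 0.1). The 2 were cisplatin with brivanib at number 2 (0.15) and at number 3 (0.21). These values do not settle whether the numbers pair the tumours, and the labels state no pairing. With the replicate block, calls were 0, 194, 35, 0 and 168 in the 5 pairwise comparisons. Pathway genes called were then 3 in brivanib against vehicle, 1 in the combination against vehicle and 3 in the combination against brivanib. Depth limits Retnla, Il4, Il13, Chil4 and Chil1, which rest on few fragments.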

Other observations

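Il1rl1, which encodes ST2, the receptor of IL-33, was among the highest-level pathway genes and was looked at after its values were seen. It measured 85.8, 97.7 and 91.5 FPKM in vehicle 2, 3 and 5, 90.9, 119.1 and 84.4 in cisplatin 1, 2 and 3, 72.0, 53.6 and 65.5 in brivanib 2, 3 and 5, and 94.7, 136.2 and 77.03 in combination 2, 3 and 4. All brivanib libraries lay below all others. The log2 difference of -0.53 ± 0.19 from vehicle did not pass (limma adjusted p = 0.291), nor did the 0.65 ± 0.19 of the combination against brivanib (limma adjusted p = 0.0856).

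Il6, an inflammatory cytokine of the classical activation list, was 1.499 ± 0.34 above vehicle in brivanib, given with no test because it passed the level filter only through brivanib (mean of the other 9 libraries 0.427 FPKM). It had 4, 10 and 10 fragments in vehicle 2, 3 and 5 and 116, 30 and 78 in brivanib 2, 3 and 5, with brivanib 3 again the lowest of its group. Mrc1, the mannose receptor CD206 and a usual marker of alternatively activated macrophages, was 18.7, 32.3 and 20.1 FPKM in vehicle and 56.1, 60.6 and 69.7 in brivanib, without overlap, and did not pass (1.39 ± 0.41, limma adjusted p = 0.16). Both genes were chosen after their values were seen.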
